A study of Homo sapiens with 6 samples.

Results

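Telomerase and shelterin are the machines that lengthen and cap chromosome ends. The 9 genes described here code for TERT, the catalytic reverse transcriptase of telomerase, for DKC1 (dyskerin) and NHP2, proteins that bind and stabilise the telomerase RNA, and for the 6 subunits of shelterin, TERF1, TERF2, TERF2IP, POT1, TINF2 and ACD. They were taken by symbol from a table of 28491 genes measured in HCT116 cells, and all 9 were found and passed the filter on low counts. TERT was chosen by its lower level in RBM47-OE, in the same contrast of these libraries, so its difference is a description with no test. The other 8 were taken for their function.

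HCT116 is a human colorectal carcinoma line, and a telomerase-positive one. Poly(A) RNA was sequenced 48 h after Lipofectamine transfection with a control plasmid (NC) or with a plasmid carrying RBM47, an RNA-binding protein (RBM47-OE), with 3 libraries in each group. Sources differ on the RBM47 vector, which is pcDNA3.1-3xFlag in the labels and pIRES-hrGFP-1a in the paper's methods. They differ on the medium (DMEM or McCoy's) and the library kit as well. Nothing states whether the 3 libraries of a group came from separate transfections, so p-values measure the spread between these libraries, which may be technical. In bulk RNA, fewer cells that express a gene and less RNA per cell cannot be told apart.

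Telomerase copies a short template in its RNA subunit, TERC, onto the chromosome end, one repeat at a time. Dyskerin, NHP2, NOP10 and GAR1 form the H/ACA core that holds TERC, and the same core guides pseudouridine formation in ribosomal RNA. In shelterin, TRF1 (gene TERF1) and TRF2 (gene TERF2) bind the double-stranded repeat, POT1 binds the single-stranded overhang, TIN2 (gene TINF2) and TPP1 (gene ACD) join them, and RAP1 (gene TERF2IP) rides on TRF2. TPP1 also recruits telomerase. TERT is commonly the limiting transcript of telomerase and is silent in most somatic cells.

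The template of TERC is shown because it is the sequence that TERT copies. The window below covers bases 38 to 67 of the 541-base GENCODE 44 transcript (chr3:169764994-169765023 of GRCh38, minus strand), with the single CCCTAA of this transcript, at bases 50 to 55, in capitals.
TERC template window: ttttttgtctaaCCCTAActgagaagggcg

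The libraries held 26792409 to 35477983 counts on genes. RBM47 itself, which also reads the plasmid, stood at 2.06 ± 0.234 FPKM (SD, n = 3) in NC and 129.6 ± 2.25 FPKM (SD, n = 3) in RBM47-OE. FPKM, computed by the authors, scales fragments to gene length and to mapped fragments. Of 10 epithelial markers, 6 stood over 1 FPKM in NC, namely EPCAM, CDH1, KRT8, KRT18, KRT19 and CDX2, whereas VIL1, LGALS4, CDH17 and CDX1 were near 0. The 4 leukocyte markers in the FPKM table summed to at most 0.36 FPKM in any library, the 4 endothelial markers to at most 0.2 FPKM. The 2 fibroblast markers in that table summed to 1.34 to 1.77 FPKM over the 6 libraries, nearly all of it COL1A1, which averaged 1.53 FPKM in both groups. Across the 16229 tested genes with an annotated exon sequence, Spearman's rho between exonic GC content and the log2 fold change was -0.63, a value across genes, which are not independent replicates. A second edgeR fit took out the dependence of each library on GC content (the GC offset). Its values follow those of the TMM fit. The offset removes all change that follows GC content, whatever its source, and its part in the results was not tested. RBM47-OE replicate 1 stood apart from its group, with a chi-square per degree of freedom of 16.5 and 18.0 against replicates 2 and 3, beside 8.35 between those and 3.26 to 4.56 within NC.

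The test was edgeR's quasi-likelihood test over 16260 genes, with Benjamini-Hochberg adjusted p-values over all of them. Levels per library are CPM, counts scaled to library size with TMM factors. At an adjusted p under 0.05, 2 of the 8 members other than TERT rose (POT1 and TERF1) and 3 fell (NHP2, ACD and TERF2IP). Over all genes tested, 19.1% were called higher and 16.9% lower, 35.9% in either direction. Scaling by library totals in place of TMM changed the split of all genes from 3100 higher and 2740 lower to 3693 and 1889, and called 2 members higher and 2 lower. The median log2 fold change of the 8 was -0.12, beside 3.96e-05 over all genes, and the median size of the change was 0.24 for the 8 and 0.24 for all genes. In CPM, 6 of the 8 had RBM47-OE libraries wholly on one side of the NC libraries, 2 above and 4 below, beside 46.5% of all genes tested. TERT was also separate, and nothing is read from that, because TERT was chosen as lower in these libraries. With the GC offset, 0 members rose and 2 fell (NHP2 and DKC1), beside 6.0% of all genes called higher and 8.46% called lower in that fit. Without RBM47-OE replicate 1, 2 members rose and 3 fell, beside 23.5% of all genes called higher and 21.3% called lower.

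**Figure D1:**
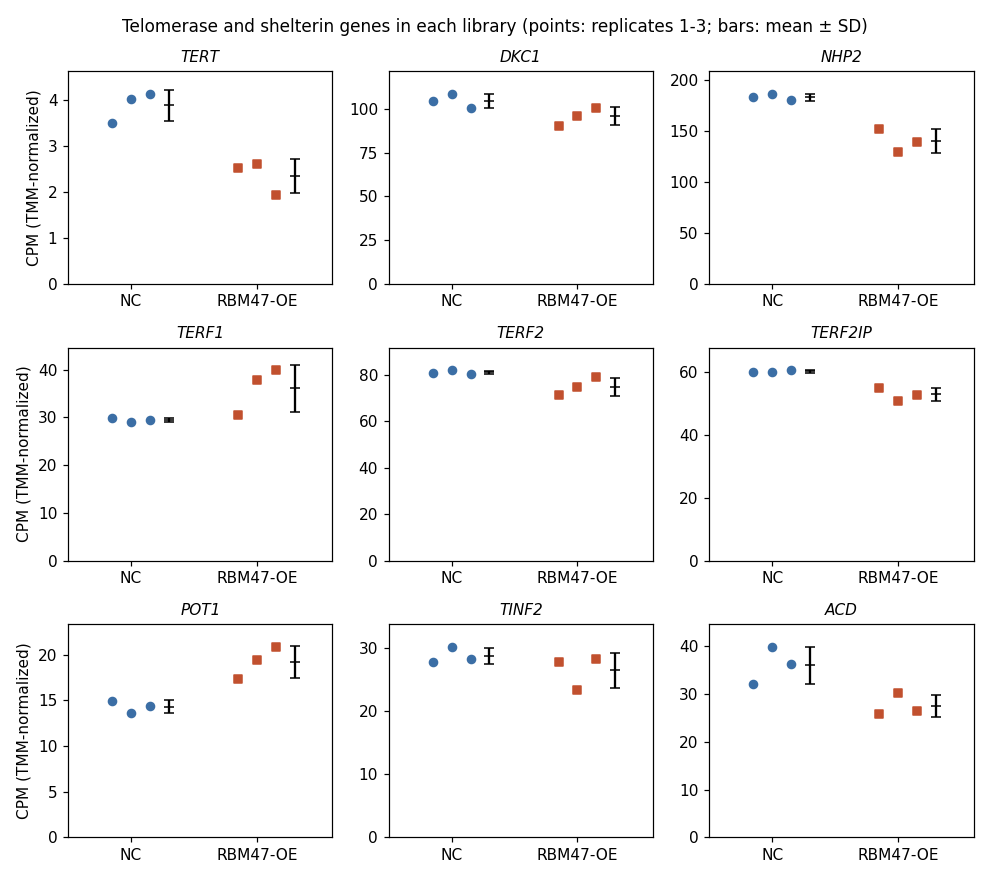
TMM-normalized CPM of the 9 genes on the vertical axis (from 0), with 1 point per library (NC circles, RBM47-OE squares, replicates 1 to 3 from left to right) and bars at the mean ± SD of 3 libraries. TERT, NHP2, TERF2, TERF2IP and ACD lie lower in all RBM47-OE libraries, POT1 and TERF1 lie higher, and DKC1 and TINF2 overlap.

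TERT (ENSG00000164362) has 16 exons in its canonical transcript (GRCh38 chromosome 5, 1253147 to 1295068, minus strand). It had 92, 139 and 119 counts in NC replicates 1, 2 and 3, and 83, 84 and 56 counts in RBM47-OE replicates 1, 2 and 3. Scaled to library size this was 3.50, 4.02 and 4.14 CPM in NC and 2.52, 2.62 and 1.93 CPM in RBM47-OE. The 3 RBM47-OE libraries all lay below the 3 NC libraries, and replicate 3 lay lowest. The means were 3.89 ± 0.338 CPM (SD, n = 3) and 2.35 ± 0.370 CPM (SD, n = 3), and the fitted level in RBM47-OE was 0.607 of that in NC.

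The log2 fold change of TERT was -0.72 (standard error, SE, 0.19). The study's fold threshold of 1.5, which is 0.58 on the log2 scale, was part of how TERT was chosen, so nothing is read from its passing or from the 0.873% of all genes lower at the study's thresholds (that fold and an unadjusted p under 0.01, here by edgeR). Nearest below that fold were POT1 at 0.42 and ACD at -0.39. The counting error on TERT was wide: the 95% Poisson interval, which covers counting error only, ran from 2.82 to 4.29 CPM in NC replicate 1 and from 2.09 to 3.24 CPM in RBM47-OE replicate 2, so these 2 libraries overlap. With the GC offset the log2 fold change was -0.50 (SE 0.18), no longer past that fold. Of the 9 genes TERT had the highest exonic GC content, 63.1%, beside a median of 48.98% over all genes tested.

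The study lists RT-qPCR primers for TERT, and they are shown because they read a short piece of the coding sequence, while the counts cover the whole gene. Under actinomycin D, which inhibits transcription, the paper's RT-qPCR found no significant change of TERT with RBM47-OE. The libraries here are not described as treated with it. On the canonical transcript the forward primer matches exon 4 (chr5:1280193-1280215) and the reverse primer matches exon 5 (chr5:1279416-1279437), which spans 113 bases of coding sequence across 1 intron.
TERT-F: gccgattgtgaacatggactacg
TERT-R: gctcgtagttgagcacgctgaa

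The 2 protein partners in telomerase were far more abundant than TERT. NHP2 (ENSG00000145912; chromosome 5, 178149463 to 178153894, minus strand) had 183.2, 187.0 and 180.3 CPM in NC replicates 1, 2 and 3, and 152.4, 129.3 and 139.1 CPM in RBM47-OE. All 3 RBM47-OE libraries were low, with replicate 1 nearest to NC. NHP2 fell by 0.39 on the log2 scale (SE 0.073 and adjusted p = 0.00030 by edgeR). It was called lower under each of the 19 alternative settings, with log2 fold changes from -0.44 to -0.25, and with the GC offset fell by 0.25 (edgeR adjusted p = 0.0050). Of its exon bases, 28.05% also belong to RMND5B on the opposite strand, and the sources do not say whether counting used strand. The annotation lists 2 processed pseudogenes of NHP2 that could take reads.

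DKC1 (ENSG00000130826; chromosome X, 154762742 to 154777689, plus strand) makes dyskerin, the pseudouridine synthase of the H/ACA core. It had 104.4, 108.7 and 100.3 CPM in NC and 90.4, 96.0 and 100.8 CPM in RBM47-OE. The groups overlapped, because RBM47-OE replicate 3 lay just above NC replicate 3. Its log2 fold change was -0.13 (SE 0.071 and adjusted p = 0.17 by edgeR). With the GC offset DKC1 fell by 0.24 (SE 0.055 and adjusted p = 0.0052 by edgeR), and with an offset for gene length it also fell by 0.24 (edgeR adjusted p = 0.0096). DKC1 was called lower under 4 of the 19 alternatives and not called under the other 15. Among those 15, library totals gave -0.06 (edgeR adjusted p = 0.51) and limma on log2(FPKM + 1) gave -0.05 (limma adjusted p = 0.58). Its exons hold 44.9% GC.

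The rest of the H/ACA group came from a list of other telomere genes. These were NOP10 and GAR1, the other core proteins, and NAF1 and SHQ1, which help assemble the core. Their log2 fold changes were -0.15 for NOP10, -0.17 for GAR1, -0.10 for NAF1 and -0.17 for SHQ1, and none passed (edgeR adjusted p from 0.11 to 0.41). Together with DKC1 and NHP2, all 6 lay below 0 under the main setting and under each of the 19 alternatives. These alternatives refit the same 6 libraries or all but 1 of them, so they are not independent of each other. With the GC offset all 6 fell (edgeR adjusted p from 0.0018 to 0.0052), by 0.24 for DKC1, 0.25 for NHP2, 0.34 for NOP10, 0.30 for GAR1, 0.38 for NAF1 and 0.40 for SHQ1, beside 8.46% of all genes called lower. Without RBM47-OE replicate 1 the same fit also called 6 of 6 lower, beside 9.54% of all genes, whereas without the GC offset between 1 and 2 of the 6 passed under any setting. In FPKM the groups overlapped for every gene but NHP2, and in CPM they overlapped for DKC1, NAF1 and SHQ1. The exons of NOP10, GAR1, NAF1 and SHQ1 held 43.0%, 44.3%, 40.4% and 41.9% GC, beside a median of 48.98% over all genes tested. For each of these the GC offset made the value more negative, and it also lowered the values of the AT-rich POT1 and TERF1. The share of all genes called lower covers every GC content and was not matched to that of these 6. The grouping of these 6 was chosen after their values were seen.

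TERC (ENSG00000270141; chromosome 3, 169764520 to 169765060, minus strand) lacks the long poly(A) tail of an mRNA, and these libraries were made from poly(A) RNA. It had 48, 49 and 60 counts in NC and 36, 46 and 28 in RBM47-OE. NC replicate 2, at 1.42 CPM, lay below RBM47-OE replicate 2, at 1.43 CPM, so the groups overlapped. The log2 fold change was -0.60 (SE 0.27 and adjusted p = 0.080 by edgeR). With the GC offset it was -0.38 (edgeR adjusted p = 0.37).

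Among the DNA-binding subunits of shelterin, POT1 and TERF1 were higher and TERF2 was not called. POT1 (ENSG00000128513; chromosome 7, 124822386 to 124929983, minus strand) had 14.99, 13.6 and 14.4 CPM in NC and 17.4, 19.5 and 20.8 CPM in RBM47-OE. No RBM47-OE library was as low as the highest of NC. POT1 rose by 0.42 on the log2 scale (SE 0.10 and adjusted p = 0.0023 by edgeR), a level 1.34 times that in NC. In the GC offset fit the log2 fold change was 0.06 (SE 0.084 and adjusted p = 0.68 by edgeR).

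TERF1 (ENSG00000147601; chromosome 8, plus strand), which codes for TRF1, had 29.99, 29.1 and 29.5 CPM in NC. In RBM47-OE it had 30.5, 37.9 and 39.9 CPM. Replicates 2 and 3 stood well above NC, while replicate 1 lay just above the highest NC library. The log2 fold change was 0.29 (SE 0.093 and adjusted p = 0.018 by edgeR), and without RBM47-OE replicate 1 it was 0.40 (edgeR adjusted p = 1.4e-04). After the GC offset it turned to -0.05 (edgeR adjusted p = 0.70), and it no longer passed without NC replicate 2 or 3 or RBM47-OE replicate 2 or 3 (edgeR adjusted p from 0.061 to 0.10). The call of TERF1 held under 9 of the 19 alternatives, was lost under 7, and under 3 the sign reversed. The annotation lists 7 processed pseudogenes of TERF1.

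TERF2 (ENSG00000132604; chromosome 16, 69355567 to 69408571, minus strand), which codes for the paralog TRF2, had 81.0, 82.0 and 80.4 CPM in NC and 71.3, 74.7 and 79.1 CPM in RBM47-OE. Its libraries did not overlap in CPM but did in FPKM, where RBM47-OE replicate 3 was highest. The log2 fold change was -0.11 (SE 0.071 and adjusted p = 0.22 by edgeR), and under the alternatives it stayed between -0.15 and -0.02 with no call. It was -0.06 with the GC offset (edgeR adjusted p = 0.57).

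Of the 3 subunits that bind other proteins, ACD and TERF2IP fell. ACD (ENSG00000102977; chromosome 16, 67657512 to 67660810, minus strand) had 32.0, 39.7 and 36.1 CPM in NC and 25.8, 30.1 and 26.3 CPM in RBM47-OE. All RBM47-OE libraries lay below NC in CPM, whereas in FPKM RBM47-OE replicate 2 (8.67) lay above NC replicate 1 (8.5). ACD fell by 0.39 (SE 0.093 and adjusted p = 0.0021 by edgeR). Under the GC offset the log2 fold change was -0.17 (SE 0.085 and adjusted p = 0.19 by edgeR). On log2(FPKM + 1) values limma gave -0.28 (limma adjusted p = 0.057). The call was lost under 5 of the 19 alternatives, over which the log2 fold change ran from -0.47 to -0.08.

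TERF2IP (ENSG00000166848; chromosome 16, 75647773 to 75761872, plus strand), the gene for RAP1, had 59.9, 60.2 and 60.6 CPM in NC and 55.0, 50.9 and 52.9 CPM in RBM47-OE. The NC libraries lay close together and all RBM47-OE libraries lay lower. TERF2IP fell by 0.19 (SE 0.073 and adjusted p = 0.046 by edgeR), and this call was lost under 13 of the 19 alternatives, although the sign was the same in all of them (-0.21 to -0.11). Of the 6 libraries, only leaving out RBM47-OE replicate 1 kept the call, and with the GC offset the log2 fold change was -0.16 (edgeR adjusted p = 0.074). Its gene overlaps KARS1 on the opposite strand over 4.0% of its exon bases.

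TINF2 (ENSG00000092330; chromosome 14, 24238286 to 24242663, minus strand), the gene for the hub protein TIN2, had 27.8, 30.1 and 28.3 CPM in NC and 27.8, 23.3 and 28.2 CPM in RBM47-OE. Only RBM47-OE replicate 2 was low, and the groups overlapped. The log2 fold change was -0.12 (SE 0.092 and adjusted p = 0.32 by edgeR), and no alternative called it. It was -0.02 with the GC offset (edgeR adjusted p = 0.89). GMPR2 on the opposite strand shares 21.9% of the exon bases of TINF2.

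Over the 8 members other than TERT, Spearman's rho between exonic GC content and log2 fold change was -0.81, and with the GC offset -0.52. The points share the 6 libraries, and these values are a description only. POT1 (36.4% GC) and TERF1 (38.2%) were the most AT-rich and the only ones that rose. ACD (61.8%) was the most GC-rich of the 8, and it and NHP2 (53.4%) had their most negative values. DKC1, at 44.9%, was low in GC yet had a negative value, and the offset made it more negative.

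**Figure D2:**
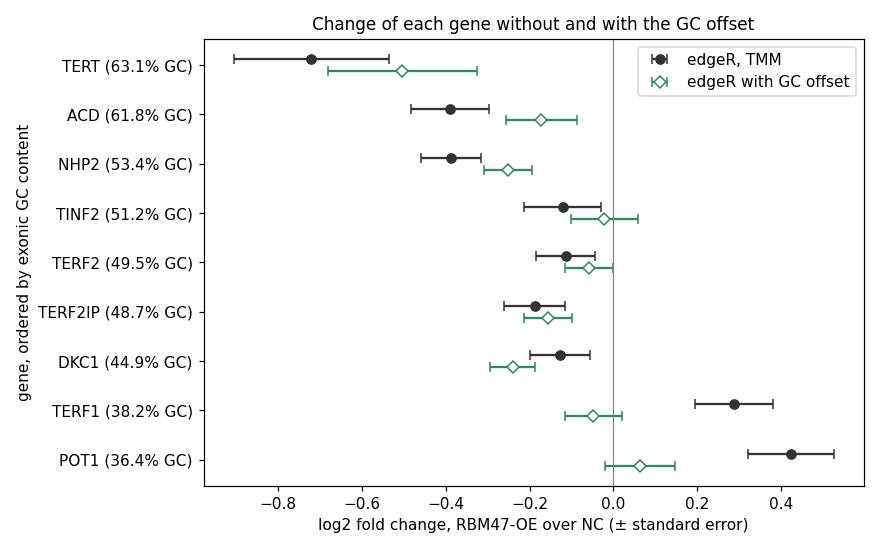
Log2 fold change of RBM47-OE over NC (horizontal axis, ± SE) for the 9 genes ordered by exonic GC content, from edgeR with TMM scaling (filled circles) and with the GC offset (open diamonds). POT1 and TERF1 move from 0.42 and 0.29 to 0.06 and -0.05 with the offset, and TERT from -0.72 to -0.50.

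AU-rich sequence in 3′ UTRs is a known binding context of RBM47, so the pentamer ATTTA was counted on the transcribed strand of the canonical 3′ UTR of each member, with overlapping matches counted. TERF1 held 9 copies in 1986 bases, POT1 5 in 1576 bases, TERF2IP 5 in 821 bases and TERF2 1 in 1331 bases. TERT, DKC1, NHP2, TINF2 and ACD held 0, in 561, 822, 250, 154 and 94 bases. Of all 3′ UTRs within 25% of the length of that of TERF1, 88.7% held at least 1 copy. The same share was 85.7% for POT1, 81.5% for TERF2 and 69.7% for TERF2IP, and among the members with 0 copies it was 69.8% for DKC1, 55.5% for TERT, 31.3% for NHP2, 22.3% for TINF2 and 14.3% for ACD. Copies were present in the 2 members that rose and also in TERF2IP, which fell. A match is a string of letters and not a bound site.

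Levels can be compared between genes only per length. In the authors' FPKM, the order in NC was NHP2 (110.2), DKC1 (21.4), TERF2 (12.4), TERF2IP (11.7), ACD (9.61), TINF2 (9.13), TERF1 (1.62), POT1 (1.41) and TERT (0.567), as means of 3 libraries. The ranges of ACD (8.5 to 10.65) and TINF2 (8.78 to 9.59) overlapped, and no other neighbours in this order did. NHP2 thus stood 194.5 times, DKC1 37.8 times and POT1 2.49 times as high as TERT in NC. Among 16338 protein-coding genes with FPKM, 30.9% stood lower than TERT and 98.1% lower than NHP2.

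In RBM47-OE the FPKM order differed only in that TINF2 (8.81) stood before ACD (7.72), whose ranges again overlapped (7.98 to 9.40 and 7.10 to 8.67). TERF1 (1.72 to 2.29) and POT1 (1.76 to 2.16) also overlapped there. TERT had 0.360 ± 0.062 FPKM (SD, n = 3) in RBM47-OE and 0.567 ± 0.049 FPKM (SD, n = 3) in NC. The FPKM rest on the summed length of all annotated exons of a gene, which for TERF1 is 15706 bases, 4.72 times its canonical transcript of 3329 bases, and for TERT 5920 bases, 1.47 times. Counted per kilobase of canonical transcript, TERF1 stood at 8.68 and TERT at 0.941 CPM per kilobase in NC, so the gap between them widened, and TERF2IP (27.7) passed TERF2 (26.5).

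**Figure D3:**
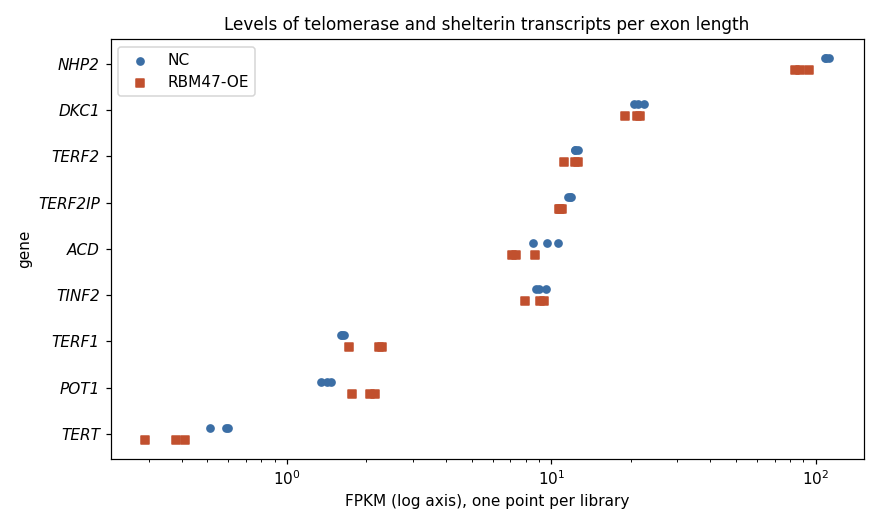
FPKM of the 9 genes on a log axis, with 1 point per library (NC circles, RBM47-OE squares). NHP2 lies above 80 FPKM in every library and TERT between 0.29 and 0.6 FPKM, with the shelterin genes spread from POT1 and TERF1 near 2 FPKM or below up to TERF2 near 12.

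Ratios of partner genes within a library do not depend on how libraries are scaled. The FPKM ratio of POT1 to ACD, whose proteins form a heterodimer, was 0.173, 0.127 and 0.147 in NC and 0.248, 0.239 and 0.293 in RBM47-OE, a difference of 0.81 on the log2 scale. The ratio of TERF1 to TERF2 was 0.133, 0.127 and 0.131 in NC and 0.154, 0.182 and 0.181 in RBM47-OE, a difference of 0.39. The ratio of DKC1 to NHP2 was 0.195, 0.198 and 0.190 in NC and 0.202, 0.253 and 0.247 in RBM47-OE, a difference of 0.26. In each pair the groups were separate, with RBM47-OE higher. How often ratios of other gene pairs separate was not computed, and 46.5% of single genes tested were separate in CPM. The first gene of each pair was the lower in exonic GC content. This was 36.4% for POT1 and 61.8% for ACD, 38.2% for TERF1 and 49.5% for TERF2, and 44.9% for DKC1 and 53.4% for NHP2. An exact two-sided permutation test gave p = 0.10 for each, the smallest value 3 libraries against 3 allow, so 0.10 is also the adjusted value over the 3 pairs. In the GC offset fit the differences were 0.23, 0.0097 and 0.011.

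Around TERT, 5 protein-coding genes were taken on each side. Of these 10, 7 were tested, SLC6A19 and SLC6A3 had 4 counts or fewer in every library, and SLC6A18 was not analysed here. The nearest tested gene was CLPTM1L, 22684 bases away toward higher coordinates, which fell by 0.38 (SE 0.072 and adjusted p = 0.00032 by edgeR) from 166.1 ± 4.22 to 127.5 ± 9.77 CPM (SD, n = 3). NDUFS6, a respiratory chain subunit 506339 bases away, fell by 0.37 (edgeR adjusted p = 6.6e-04), and its neighbour MRPL36, a mitochondrial ribosomal protein gene, fell by 0.39 (edgeR adjusted p = 0.010). NKD2, a regulator of Wnt signalling, fell by 0.32 (edgeR adjusted p = 0.023) and SLC12A7, an ion cotransporter gene, by 0.21 (edgeR adjusted p = 0.043). LPCAT1 stood at -0.15 (edgeR adjusted p = 0.11) and TRIP13 at -0.07 (edgeR adjusted p = 0.54). Thus 5 of 7 fell and 0 rose, beside 16.9% of all genes lower. The groups overlapped for NKD2 and MRPL36 in CPM and FPKM, and for SLC12A7 in FPKM. The 5 that fell held from 54.8% (NDUFS6) to 67.3% (NKD2) GC in their exons, beside a median of 48.98% over all genes tested. After the GC offset, CLPTM1L (-0.20) and NDUFS6 (-0.21) were the 2 that still fell, beside 8.46% of all genes, while MRPL36 stood at -0.18, TRIP13 at -0.14 and NKD2 at -0.10.

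**Figure D4:**
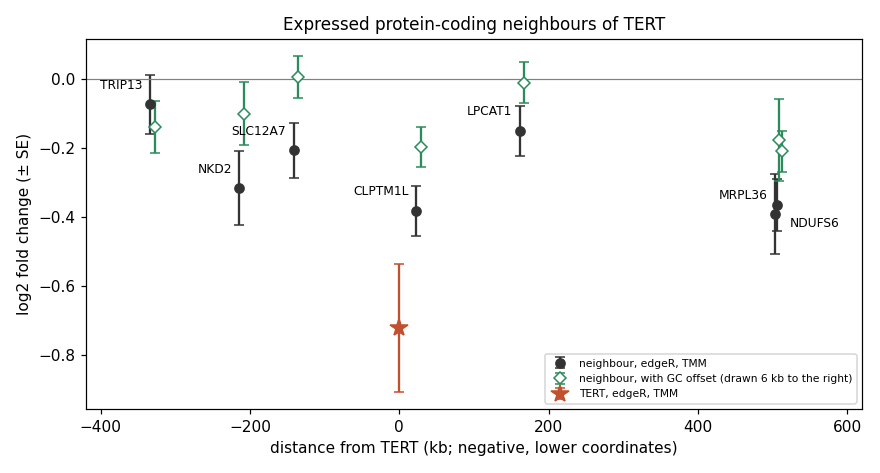
Log2 fold change (± SE) of the 7 tested protein-coding neighbours of TERT against their distance from TERT in kilobases, with TMM scaling (filled circles) and with the GC offset (open diamonds), and of TERT itself (star). All 7 and TERT lie below 0 with TMM scaling, and SLC12A7 and LPCAT1 move to 0.01 and -0.01 with the offset.

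The genes whose pattern over the 6 libraries was most like that of TERT were found by the root mean square distance between log2 CPM profiles, each centred on its own mean, among genes with a mean log2 CPM of at least 0. The nearest 5 were AC005785.2 (distance 0.086), BATF2 (0.093), WDR25 (0.10), MTATP6P1 (0.10) and SNAI1 (0.11). Of these, SNAI1 is a transcription repressor of epithelial genes and MTATP6P1 is a nuclear copy of a mitochondrial gene, which could share reads with it. Their exonic GC content ran from 43.9% for MTATP6P1 to 67.2% for AC005785.2. The log2 fold changes of these 5 ran from -0.81 for SNAI1 to -0.54 for WDR25. TERT was chosen as lower in RBM47-OE, so genes close to its profile are lower as well, and nothing is read from their likeness.

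A wider set of 101 genes in 4 lists covered other telomere functions, and 97 were tested. Of these 32 rose and 23 fell, or 33.0% and 23.7% of those tested, beside 19.1% and 16.9% of all genes, and the median log2 fold change was -0.02. Under the GC offset 5 rose and 15 fell, beside 6.0% and 8.46% of all genes. The 32 that rose held 34.9% to 46.6% GC in their exons and the 23 that fell held 49.2% to 65.9%, so that no gene that fell was as AT-rich as any that rose. Over all genes the median GC content was 40.3% for those called higher and 57.1% for those called lower.

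In the list on telomerase assembly and RNA maturation, 5 of 20 rose and 4 fell, with a median of -0.11. WRAP53, the protein that carries telomerase to Cajal bodies, fell by 0.48 (edgeR adjusted p = 0.00035). The ATPases RUVBL2 and RUVBL1, which take part in dyskerin assembly, fell by 0.41 (edgeR adjusted p = 1.9e-04) and by 0.31 (adjusted p = 0.0018 by edgeR). TOE1, a deadenylase that trims TERC, fell by 0.29 (edgeR adjusted p = 0.049). The TERC deadenylase PARN rose by 0.32, the cap methylase TGS1 by 0.34, the poly(A) polymerase TENT4B by 0.48 and the chaperone HSP90AA1 by 0.49 (edgeR adjusted p of 0.014 or less for each). TENT4B adds the tail that PARN removes. TOE1 lost its call without any of 5 single libraries (all but RBM47-OE replicate 1), and TGS1 without NC replicate 2 or RBM47-OE replicate 2 or 3. In the GC offset fit PARN stood at 0.16, TGS1 at 0.07, TENT4B at 0.21, RUVBL1 at -0.17 and TOE1 at -0.14, none called. In that fit HSP90AA1 rose, and WRAP53, RUVBL2, SHQ1, NAF1, NOP10 and GAR1 fell.

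The list on telomere end processing and replication had 13 of 25 genes higher and 4 lower, with a median of 0.28. The largest rises were those of PRIM1, a primase subunit, by 0.42, XRCC5, the Ku80 gene, by 0.41, RIF1 by 0.40 and the tankyrase TNKS2, which modifies TRF1, by 0.38 (edgeR adjusted p of 0.0026 or less for each). TNKS1BP1 fell by 0.31, CTC1 of the CST complex by 0.27, the helicase RTEL1 by 0.25 and XRCC6, the Ku70 gene, by 0.22 (edgeR adjusted p of 0.022 or less). The Ku partners thus moved in opposite directions, but XRCC6 lost its call without NC replicate 1 or 2 or RBM47-OE replicate 2. CTC1 lost it without NC replicate 2 or 3 or RBM47-OE replicate 2, and RTEL1 without any 1 of the NC libraries. The groups overlapped for RIF1. After the GC offset 2 genes, XRCC5 and the CST subunit STN1, rose and 0 fell, and the median was 0.05. There PRIM1 stood at 0.22, TNKS2 at 0.13, RIF1 at 0.05, XRCC6 and CTC1 at -0.16 and -0.15, TNKS1BP1 at -0.10 and RTEL1 at -0.03.

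Among genes of alternative lengthening and telomeric chromatin, 8 of 22 rose and 5 fell. ATRX rose by 0.56, FANCM by 0.46 and the helicases WRN and BLM by 0.45 and 0.40 (edgeR adjusted p of 0.013 or less). For BLM the groups overlapped, with RBM47-OE replicate 1 at 20.2 CPM and NC at 20.2 to 21.7 CPM. Leaving out RBM47-OE replicate 3 took BLM to 0.23 and FANCM to 0.25, and neither then passed. BLM also lost its call without NC replicate 2 or RBM47-OE replicate 2, and FANCM without NC replicate 2. DAXX, the partner of ATRX in depositing histone H3.3, fell by 0.32, the histone methylase SUV39H1 by 0.50, TOP3A by 0.31 and UPF1 by 0.29 (edgeR adjusted p of 0.0026 or less). Under the GC offset 1 rose, ATRX by 0.19, and 4 fell, among them SUV39H1 by 0.32 and TOP3A by 0.23. FANCM stood at 0.10, WRN at 0.12, BLM at 0.15, DAXX at -0.16 and UPF1 at -0.10 in that fit, none called.

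Of 30 tested factors that are known to act on TERT transcription, 6 rose and 10 fell, or 20.0% and 33.3%, beside 19.1% and 16.9% of all genes. SP3 rose by 0.40, GABPA, which binds mutant TERT promoters, by 0.35, the MYC antagonist MXD1 by 0.33 and HIF1A by 0.32 (edgeR adjusted p of 0.015 or less). Whether the TERT promoter of these cells is mutant was not examined here. MAZ fell by 0.41, ETV4 by 0.33 and E2F1 by 0.29 (edgeR adjusted p of 0.0059 or less). MYC fell by 0.22 (edgeR adjusted p = 0.024), and its partner MAX by 0.25 (edgeR adjusted p = 0.012). Also called were USF2 (-0.27), RELA (-0.26), MEN1 (-0.20) and SMAD3 (-0.20), and in the other direction ELF1 (0.28) and SP1 (0.20). For each of these the edgeR adjusted p was 0.042 or less, and none was called in the GC offset fit. The part of any of these factors in the change of TERT was not tested. The choice to name MYC, MAX and the genes listed after them followed their values, as did that of genes named only for the fit with the GC offset. MXD1 lost its call without NC replicate 2 or 3 or RBM47-OE replicate 2, and E2F1 without NC replicate 2. In the GC offset fit SP3 stood at 0.05, GABPA at 0.02, MXD1 at 0.14, ETV4 at -0.13, E2F1 at -0.07 and MYC at -0.11, none called. There MAZ, MAX, CTNNB1 and SIN3A fell, KLF4 rose, and HIF1A turned to -0.000893 (edgeR adjusted p = 0.99).

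**Figure D5:**
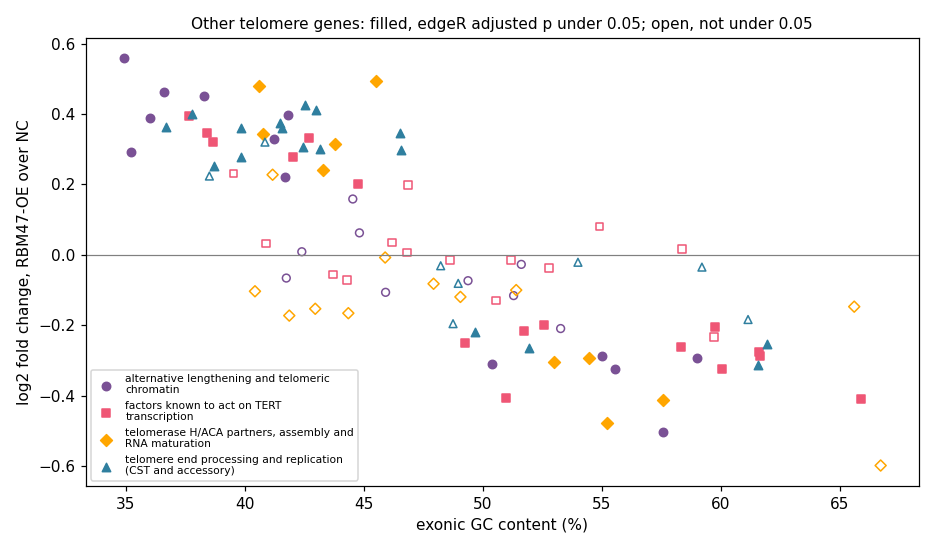
Log2 fold change of 97 other telomere genes against their exonic GC content in percent, coloured by list, with filled points for an edgeR adjusted p under 0.05. The 32 filled points above 0 lie at 46.6% GC or less and the 23 below 0 at 49.2% or more.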

How the data were processed

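RNA-seq of 6 HCT116 libraries was used, 3 NC and 3 RBM47-OE. The authors filtered and trimmed reads (FASTX-Toolkit), mapped them to GRCh38 (HISAT2), kept unique hits and deposited raw counts per gene and library. They also deposited FPKM computed from those hits. For 93.0% of 6027 genes at 5 FPKM or more, the implied length was within 5% of the summed exon length in GENCODE 44. The counting tool, annotation release and strand setting are not given in the sources used here. The submitters' processing notes also name DESeq2.

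Counts were tested with edgeR 4.0.16 in R 4.3.3 (filterByExpr with a minimum count of 10 and a minimum total of 15, TMM, quasi-likelihood test, condition only). The standard error is the size of the log2 fold change over the square root of F. GC and length offsets were loess curves (span 0.3) per library. limma 3.58.1 was used for FPKM, and DESeq2 1.42.0 and the other alternatives are in the closing section. The scripts were tested on simulated data with known changes. The members and lists were chosen with earlier results of these data known. Named genes were the members, up to 4 genes per direction and list with the largest change, the 10 neighbours of TERT and the 5 genes most like it. One result under this rule is not reported here.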

Additional observations from a re-analysis of the deposited data

How the results depend on the processing

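Depth limited TERT and TERC most, with 28 to 139 counts a library. With the GC offset the members called higher became 0 (0 also with the replicate block and without RBM47-OE replicate 1), the wider genes called became 5 higher and 15 lower (4 and 14 with the replicate block; 9 higher without RBM47-OE replicate 1), and TERT stood at -0.50 (-0.50 with the block and -0.50 without RBM47-OE replicate 1). TERF1 reversed to -0.0477 and -0.0485 in the first 2 of these fits and to -0.0075 in the third, HIF1A to -0.000893 and -0.000991 in the first 2, and RTEL1 to 0.018 in the third. The cause was not tested. The offset without RBM47-OE replicate 1, the offset on ratios and the canonical lengths were chosen after seeing the data. In the GC offset fit of all libraries the ratio differences were 0.0097 for TERF1 to TERF2, 0.23 for POT1 to ACD and 0.011 for DKC1 to NHP2.

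With an offset for length 1 member was called higher. With limma on log2(FPKM + 1) and on log2(FPKM + 0.1), 1 member was higher and 1 lower and 15 wider genes were lower in both, and TERT stood at -0.20 with the first, where the pseudocount exceeds its level. Leaving out 1 library at a time, members called higher ranged from 1 to 2 and lower from 2 to 3, the wider genes from 21 to 35 higher and from 14 to 28 lower, and TERT from -0.80 to -0.60. The single higher member was POT1, without NC replicate 2 or 3 or RBM47-OE replicate 2 or 3. Without NC replicate 2 the wider counts were 21 and 14. The ratio differences ranged from 0.35 to 0.47, from 0.70 to 0.92 and from 0.20 to 0.37 in the order above. RLE factors, library totals, DESeq2 on filtered or all genes and other filters moved no count of calls by over 1.5 times.

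Replicate numbers did not pair the libraries. Deviations from the group means of same-numbered libraries correlated at -0.06, -0.01 and -0.02, and no library correlated best with its own number. With the replicate number as a block, 2 members were higher and 2 lower, and 31 wider genes were higher and 20 lower.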

Other observations

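Of 8 proliferation genes, TOP2A rose by 0.49 and BUB1 by 0.27, while MCM2 fell by 0.41, CCNB1 by 0.37 and PCNA by 0.20 (edgeR adjusted p of 0.040 or less for each). MKI67 stood at 0.04 (edgeR adjusted p = 0.73), MCM6 at 0.03 and AURKA at -0.14. The FPKM of the 8 genes summed to 368.6 to 384.6 in NC and 347.4 to 374.8 in RBM47-OE, which overlap. Their part in the change of TERT was not tested.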
